A study of Mus musculus with 3 samples.

Results

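The genes described here are 10 neuronal calcium sensors and buffers of the EF-hand type, taken by symbol from the expression table of mouse hippocampus: Calb1, Calb2, Pvalb, Hpca, Hpcal1, Hpcal4, Ncald, Ncs1, Vsnl1 and Cabp1. All 10 were found among the 39377 rows. The tissue was whole hippocampus, with all its cell types, of C57BL/6 mice of wild type, taken at postnatal day 14 and sequenced as total RNA. The 3 libraries form 1 group with no treatment or mutant, so the comparisons are between genes inside the same libraries. Nothing in the labels says that each library is a different mouse, and p-values therefore stand for the spread among these 3 samples alone, which may be technical. Values are FPKM (fragments per kilobase of transcript, scaled to the mapped fragments of the library), and a value after ± is the SD over libraries (n = 3).

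An EF-hand is a helix, a loop and a helix in which the side chains of the loop hold a calcium ion. Sensors such as hippocalcin change shape when they bind calcium and then act on membranes, channels or enzymes, and many of them carry a fatty acid on an N-terminal glycine. Buffers such as calbindin, calretinin and parvalbumin bind calcium and limit how far and how long it spreads in a neuron. In the hippocampus hippocalcin is known from pyramidal cells, calbindin from mature granule cells and part of the pyramidal cells, calretinin from immature granule cells, interneurons and Cajal-Retzius cells, and parvalbumin from fast-spiking interneurons.

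The coding sequences show how near these genes are to each other. They were read from GENCODE M21 transcripts on GRCm38, the build that the submitters' processing notes name, with 1 principal transcript for each gene. The EF-hand loop pattern of PROSITE, searched in the translated reading frame, was found 3 times in each of Hpca, Hpcal1, Hpcal4, Ncald, Ncs1, Vsnl1 and Cabp1, 4 times in Calb1, 5 times in Calb2 and 2 times in Pvalb. The second loop of each gene is printed here because it starts at the same base, 325 of the coding sequence, in all 6 neuronal calcium sensors. In Cabp1, Calb1, Calb2 and Pvalb it is only the second match of the pattern, at bases 514, 331, 226 and 271. It need not be the corresponding loop there. Each run has 36 bases or 12 codons, and the capitals mark the first and the last codon, whose side chains hold the calcium ion.
Hpca: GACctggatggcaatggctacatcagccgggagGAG
Hpcal1: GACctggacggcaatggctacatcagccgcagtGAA
Ncald: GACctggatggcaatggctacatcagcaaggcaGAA
Hpcal4: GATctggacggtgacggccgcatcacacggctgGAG
Vsnl1: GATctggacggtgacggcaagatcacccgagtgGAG
Ncs1: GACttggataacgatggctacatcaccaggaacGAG
Cabp1: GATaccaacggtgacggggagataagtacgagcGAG
Calb1: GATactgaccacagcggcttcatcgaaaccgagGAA
Calb2: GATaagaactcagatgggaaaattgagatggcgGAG
Pvalb: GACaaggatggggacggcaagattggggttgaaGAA
Among the sensors, Hpca, Hpcal1 and Ncald were near to each other, and so were Hpcal4 and Vsnl1. Ncs1 shared at most 58.95% of residues with any of them. Over aligned codons, the coding sequences of Hpca and Hpcal1 had 86.0% of bases in common and encoded the same residue in 93.8% of codons, and those of Hpcal4 and Vsnl1 had 82.4% of bases and 89.5% of residues in common. Hpcal1 and Ncald shared 80.1% of bases and 89.6% of residues, and Hpca and Ncald 78.6% of bases and 88.1% of residues. Calb1 and Calb2, the calbindins, were farther apart, at 63.8% of bases and 60.8% of residues. Codon 2 encoded glycine in all 6 neuronal calcium sensors and in the Cabp1 transcript read, of 227 codons, and in none of the 3 buffers. The other protein-coding transcripts of Cabp1, which encodes several forms, were not read.

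The likeness bears on the values, since the tool that assigned fragments to genes is not given in the sources used here. The longest identical run between any 2 of the coding sequences was 46 bases, between Hpca and Ncald, shorter than a read of 150 bases.
Hpca and Ncald, shared run: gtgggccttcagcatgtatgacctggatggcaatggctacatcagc
Hpca and Hpcal1, shared run: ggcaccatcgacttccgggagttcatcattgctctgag
Of all windows of 50 bases in the principal transcripts, 0 of those in Calb1, Calb2, Pvalb, Hpcal4, Ncs1, Vsnl1 and Cabp1 occurred in a transcript of another annotated gene on either strand. The share was 1.00% for Hpca, with Tmem54, which overlaps it on the opposite strand, giving the most windows. It was 7.18% for Hpcal1, with most windows in noncoding RNAs and pseudogenes elsewhere in the genome, and 11.3% for Ncald, in the overlapping Gm28221 on the opposite strand and Gm49397 on the same strand. Tmem54 was listed at 0 in all 3 libraries, while Gm28221 and Gm49397 were not analysed here. Whether counting used strand is not given in the sources used here, so reads of an antisense partner cannot be told apart from those of Hpca or Ncald.

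The 10 genes were together well above the usual level of the table. Their median of mean levels was 73.1 FPKM, against 10.5 FPKM over all 13337 genes with a mean of at least 1 FPKM, and all 10 passed that filter. Their summed level was 1563.79, 1574.23 and 1589.20 FPKM in libraries 1, 2 and 3. Hpca gave 48.3% ± 2.94 of that sum and Pvalb 1.17% ± 0.236. From the highest mean to the lowest, the order was Hpca, Vsnl1, Hpcal4, Ncald, Calb2, Ncs1, Calb1, Cabp1, Hpcal1 and Pvalb. The order in library 3 was the same, library 1 had Ncald above Hpcal4, and library 2 had Pvalb above Hpcal1.

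**Figure D1:**
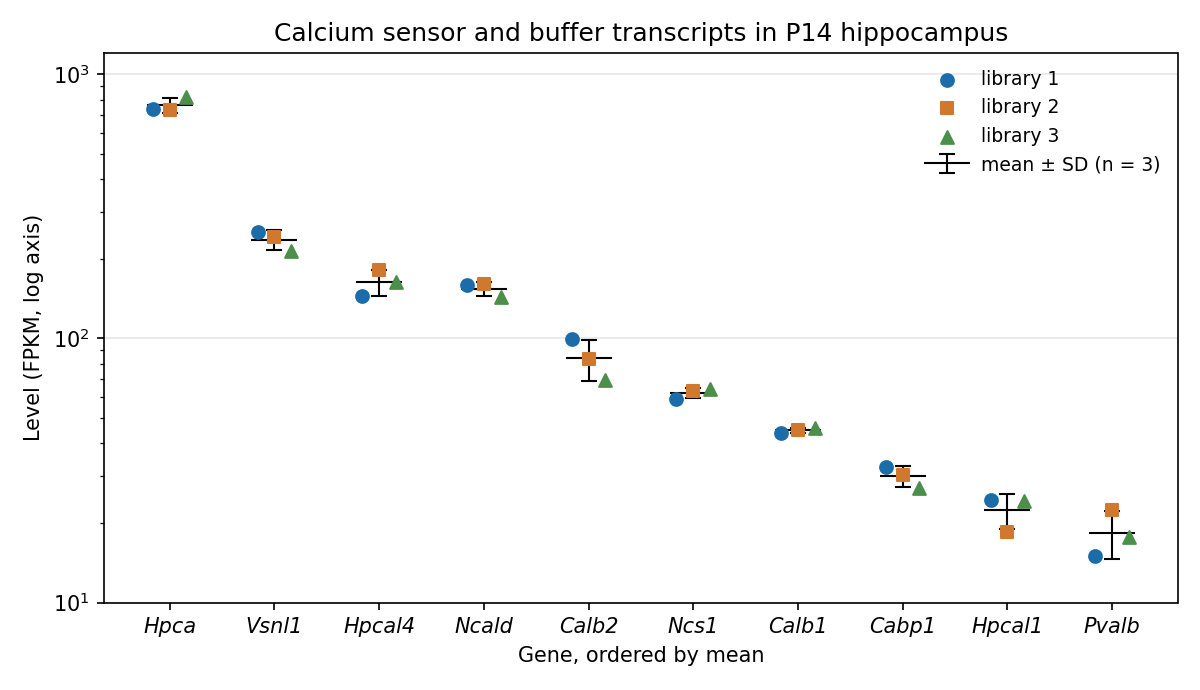
Level of each gene in each library, in FPKM on a log axis, with genes ordered by mean; points are libraries and the black bars are the mean ± SD of 3 libraries. Hpca stood at 728.37 to 820.77 FPKM, above every other gene shown, and Pvalb at 15.01 to 22.42 FPKM overlapped Hpcal1.

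The libraries were shallow, and markers of some cell types differed between them. The steps between low FPKM values gave about 3700000, 4140000 and 6020000 fragments for libraries 1, 2 and 3. All 10 general markers of hippocampus, among them Lhx2, Neurod6 and Spink8, had a mean of at least 1 FPKM, as did 70.0% of all genes above 0. The choroid plexus list, with 6 of 6, and the thalamus list, with 5 of 6, passed that bar too, so it does not set hippocampus apart. The summed choroid plexus markers were 398.86, 1085.90 and 1314.18 FPKM, nearly all of it Ttr. The summed immature granule neuron markers were 108.22, 79.45 and 68.72 FPKM. The Cajal-Retzius markers summed to 24.17, 12.02 and 14.51 FPKM, with 6 of 6 highest in library 1. Reln made up most of the Cajal-Retzius sum, and Trp73, Lhx1, Lhx5 and Ebf3 had means of at most 1 FPKM. The 6 cerebellar markers summed to 21.25, 16.42 and 14.13 FPKM. Car8, at 7.70, 10.05 and 7.46 FPKM, and Cbln1, at 7.40, 4.64 and 6.41 FPKM, were the highest of them, Pcp2 was listed at 5.74, 1.10 and 0 FPKM, and Gabra6 and Fat2 stayed at or under 0.18 FPKM. For scale, 36.3%, 32.5% and 30.9% of the 13337 genes with a mean of at least 1 FPKM were highest in libraries 1, 2 and 3. In bulk tissue, fewer cells of a type and less RNA per cell cannot be told apart.

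Among the sensors, Hpca, the hippocalcin gene, was the highest by a wide margin. It had 733.69, 728.37 and 820.77 FPKM in libraries 1, 2 and 3, with a mean of 761 ± 51.9 FPKM, rank 118 of all rows. Library 3 was the highest and the others were close to each other, and no library of another member reached these values. Its locus is chromosome 4, bases 129111570 to 129122036 on the minus strand (GRCm38). Some 4281, 4786 and 7841 fragments lay behind these values, with 1.13% to 1.53% of counting error, against a coefficient of variation of 6.82%. The summed CA pyramidal markers were 762.14, 723.21 and 810.78 FPKM, highest in library 3 with 5 of 9 markers, and most of that sum was Slc17a7. Their median was 33.11, 38.46 and 37.3 FPKM, highest in library 2. The part of these cells in the spread of Hpca was not tested.

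All 9 other members were lower than Hpca by more than 2-fold (limma, where the null allows a gap of 1 log2 unit, with Benjamini-Hochberg adjustment over 13336 genes, lower in 3 of 3 libraries each). Over all genes 97.6% were lower and 0.262% were higher than Hpca by more than 2-fold, so the count of 9 does not set the members apart. The nearest was Vsnl1, at -1.69 log2 units (SE 0.128, adjusted p = 0.000989). The farthest was Pvalb, at -5.31 (SE 0.148, adjusted p = 1.26e-07). Of the table as a whole, 35 genes passed as higher.

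Vsnl1 encodes a visinin-like sensor that is known for moving to membranes when calcium rises. It had 252.53, 241.48 and 214.18 FPKM, a mean of 236 ± 19.7 FPKM, with library 3 lowest and no overlap with Hpca above or Hpcal4 below. Its locus is chromosome 12, bases 11325242 to 11436613, minus strand. Hpca was 3.25 ± 0.506 times Vsnl1, a gap of 1.69 log2 units (SE 0.135, adjusted p = 6.43e-06 in limma with a null of no difference, in 3 of 3 libraries), where the SE differs from that above because the fit was centred on Vsnl1. Of all genes, 2.59% were higher than Vsnl1 under that null.

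Hpcal4 encodes the visinin-like sensor nearest to Vsnl1 in sequence. It had 145.06, 181.03 and 162.93 FPKM, a mean of 163 ± 17.99 FPKM, with library 1 lowest and library 2 highest. Its locus is chromosome 4, bases 123183227 to 123194701, plus strand. Vsnl1 was 1.46 ± 0.241 times Hpcal4, 0.53 log2 units above it (SE 0.158, adjusted p = 0.00717 in limma, in 3 of 3 libraries), with 3.69% of all genes higher than Hpcal4. Comparisons between genes also carry differences of transcript length, GC content and mapping, whose part was not tested.

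Ncald encodes neurocalcin delta, a sensor that has been described with clathrin and the cytoskeleton. It had 158.40, 160.57 and 142.92 FPKM, a mean of 154 ± 9.62 FPKM, and its locus is chromosome 15, bases 37366175 to 37792570, minus strand. Hpcal4 and Ncald overlapped: Hpcal4 was lower in library 1 and higher in libraries 2 and 3. Hpcal4 was 1.06 ± 0.126 times Ncald, and the difference of 0.08 log2 units (95% interval -0.21 to 0.37) was not called (limma adjusted p = 0.536). Of all genes, 4.03% were higher than Ncald.

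Ncs1 encodes the mammalian form of frequenin, a sensor that binds a phosphatidylinositol kinase. It had 59.11, 63.25 and 64.03 FPKM, a mean of 62.1 ± 2.64 FPKM, close together in all 3 libraries. The gene is at chromosome 2, bases 31245823 to 31295989, plus strand. Its coefficient of variation was 4.26%, somewhat above the counting error of 2.43% to 3.23% on about 959, 1150 and 1693 fragments.

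Hpcal1, the gene nearest to Hpca in sequence, was the lowest of the sensors. It had 24.42, 18.51 and 24.25 FPKM, a mean of 22.4 ± 3.36 FPKM, with library 2 below the others. The gene is at chromosome 12, bases 17690856 to 17791933, plus strand. The value rested on about 113, 97 and 185 fragments, so counting error alone was 7.36% to 10.2%, against a coefficient of variation of 15.0%. Hpca was 34.4 ± 4.68 times Hpcal1, and Hpcal1 stood -5.03 log2 units from Hpca (SE 0.123, adjusted p = 7.35e-08, limma, with a gap of 1 log2 unit allowed). Vsnl1 and Hpcal4, the next pair by bases in common, differed by 0.53 log2 units.

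Set side by side over the 15 pairs of neuronal calcium sensors, likeness of sequence and of level can be read pair by pair. The pair with the most bases in common, Hpca and Hpcal1, also had the widest gap in level, at 5.03 log2 units. Hpcal4 and Ncald had the narrowest gap, at 0.08 log2 units, with 67.2% of bases in common. The pairs share genes, so this is a description of 6 genes and no test was made.

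**Figure D2:**
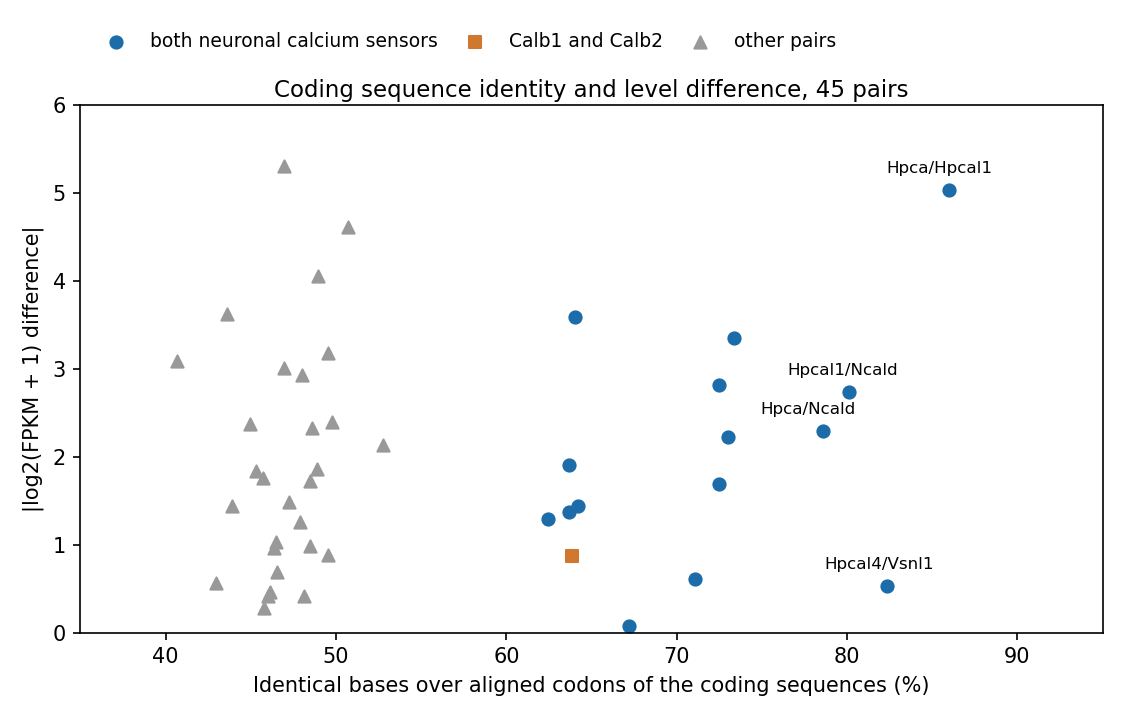
Size of the difference in log2(FPKM + 1) between the genes of each of 45 pairs (vertical axis) against the percentage of identical bases over aligned codons (horizontal axis); each point is a pair, and pairs above 75% are named. Hpca and Hpcal1, at 86.0%, differ by 5.03 log2 units, and Hpcal4 and Vsnl1, at 82.4%, by 0.53.

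Across the whole family of 13 neuronal calcium sensor genes, Hpca gave 49.3% ± 2.46 of the summed FPKM, Vsnl1 15.3% ± 1.57, Hpcal4 10.6% ± 1.13, Ncald 9.997% ± 0.798, Ncs1 4.03% ± 0.116 and Hpcal1 1.45% ± 0.216. Of the other 7, Kcnip2, a subunit of A-type potassium channels, was the highest at 70.06, 72.26 and 80.52 FPKM. Kcnip3 had a mean of 29.9 ± 1.19 FPKM and Kcnip1 one of 24.4 ± 3.01 FPKM, both above Hpcal1 by mean, while Kcnip4, at 14.67, 12.73 and 14.47 FPKM, was below it in each library. Of the 4 tested, 4 were lower than Hpca by more than 2-fold. The sensors of photoreceptors were near 0: Rcvrn, the recoverin gene, was listed at 0, 0 and 0.43 FPKM, Guca1a at 0.44, 0 and 0.55, and Guca1b at 0, 0 and 0.12.

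Cabp1, which encodes caldendrin and shorter forms that act on calcium channels and on the inositol trisphosphate receptor, stood between Calb1 and Hpcal1 in the order. It had 32.55, 30.45 and 27.12 FPKM, a mean of 30.0 ± 2.74 FPKM, on about 132, 140 and 181 fragments, with library 3 lowest. The gene, at chromosome 5, bases 115168689 to 115194381, minus strand, has 3 protein-coding transcripts in GENCODE, which the table does not separate. Within the CaBP family of 6 genes it gave 32.5% ± 4.94 of the summed FPKM, after Cabp7 at 43.0% ± 4.45 and before Caln1 at 24.3% ± 0.739. Cabp7, which is also on the pyramidal cell marker list, had 33.11, 41.41 and 45.78 FPKM, above Cabp1 in each library and least so in library 1. Cabp4 was listed at 0.10 to 0.14 FPKM, and Cabp2 and Cabp5 at 0 in all 3 libraries.

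**Figure D3:**
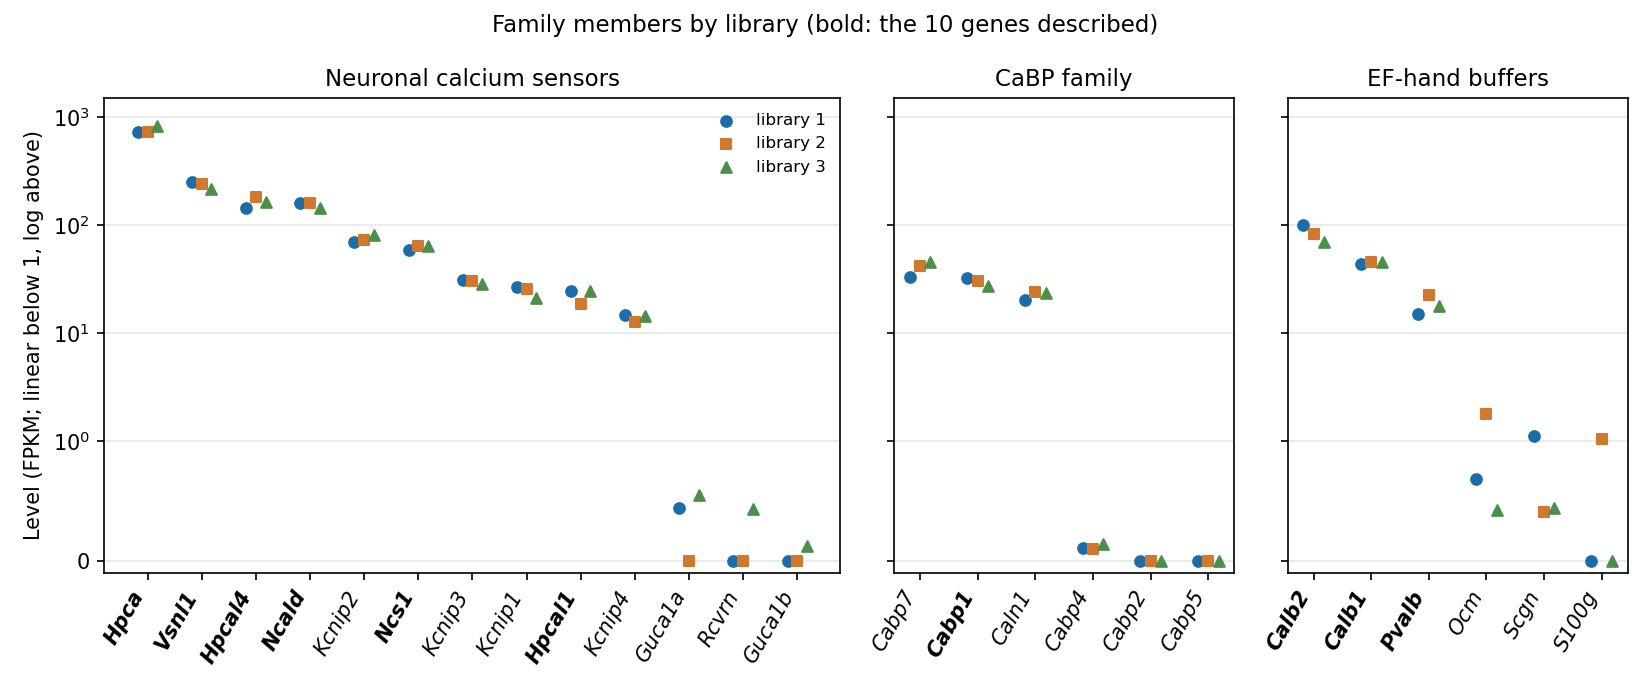
FPKM of every listed gene of the neuronal calcium sensor family, the CaBP family and the small EF-hand buffers in each library, linear below 1 and log above; points are libraries and the genes described here are in bold. In the sensor family Hpca leads at 761 FPKM by mean, and Rcvrn, Guca1a and Guca1b lie under 1 FPKM.

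Among the buffers, Calb2, the calretinin gene, was the highest. It had 99.12, 83.24 and 69.59 FPKM, a mean of 84.0 ± 14.8 FPKM, from chromosome 8, bases 110137502 to 110168210, minus strand. Library 1 was highest and library 3 lowest as deposited and under median-ratio scaling (98.25, 83.28 and 69.84). With FPKM rescaled to a common sum library 2 was lowest, but Bc1 makes up most of the difference between those sums. The coefficient of variation was 17.6%, and the counting error on the estimated depth was 4.51% to 4.98%. Its coefficient of variation was higher than that of 82.0% of the 6816 genes with a mean of at least 10 FPKM. Among cells known for calretinin, immature granule cells had 5 of 6 markers and Cajal-Retzius cells 6 of 6 markers highest in library 1. Of the Cajal-Retzius markers, however, Trp73, Lhx1, Lhx5 and Ebf3 had means of at most 1 FPKM. Reln, which gave most of their sum, is on the interneuron list too. The 12 interneuron markers had their lowest sum in library 1, at 1765.74, 2042.19 and 1884.16 FPKM, most of it Cck, Sst and Npy. Their median was highest there, at 22.83, 18.51 and 18.33 FPKM. Reln was at 17.22, 7.36 and 9.86 FPKM and Neurod1 at 29.27, 16.35 and 15.07 FPKM. The part of these cells in the spread of Calb2 was not tested.

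Calb1, the calbindin gene, was the most even of the 10 as deposited. It had 43.90, 44.91 and 45.69 FPKM, a mean of 44.8 ± 0.898 FPKM, from chromosome 4, bases 15881264 to 15908064, plus strand. Its coefficient of variation of 2.00% was below the counting error of 3.03% to 3.95%, on about 642, 737 and 1090 fragments. Calb2 was above Calb1 in each library, by 0.88 log2 units (SE 0.134). The dentate granule neuron markers, which include Prox1 and C1ql2, summed to 80.57, 75.74 and 64.57 FPKM.

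Pvalb, the parvalbumin gene, was the lowest of the 10 by mean. It was also the least even as deposited, though with FPKM rescaled to a common sum Hpcal1 was, with a coefficient of variation of 25.2%, against 17.0% for Pvalb. Pvalb had 15.01, 22.42 and 17.72 FPKM, a mean of 18.4 ± 3.75 FPKM, from chromosome 15, bases 78191114 to 78206400, minus strand. The value rested on about 39, 67 and 76 fragments, so counting error was 16%, 12.3% and 11.4%, next to a coefficient of variation of 20.4%. Library 2 was the highest as deposited and under median-ratio scaling (14.88, 22.43 and 17.78). With FPKM rescaled to a common sum library 3 was the highest, but Bc1 makes up most of the difference between those sums. As deposited, 6 of 12 interneuron markers were highest in library 2, 5 in library 1 and 1 in library 3. Those highest in library 2 included Sst at 674.46, 807.65 and 654.22 FPKM and Gad1 at 51.60, 61.00 and 44.75 FPKM. Those highest in library 1 were Gad2, Slc32a1, Reln, Lhx6 and Nkx2-1. The 1 highest in library 3 was Cck, at 700.79, 821.20 and 888.64 FPKM. Cck, Sst and Npy gave most of the summed interneuron level. The part of interneuron number in the spread of Pvalb was not tested.

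The 3 buffers gave nearly all the FPKM of the small EF-hand buffers listed: Calb2 56.0% ± 5.29, Calb1 30.3% ± 3.46 and Pvalb 12.4% ± 2.69. Ocm, the oncomodulin gene, was listed at 0.68, 1.77 and 0.42 FPKM, Scgn, the secretagogin gene, at 1.10, 0.41 and 0.44, and S100g at 0, 1.05 and 0.

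**Figure D4:**
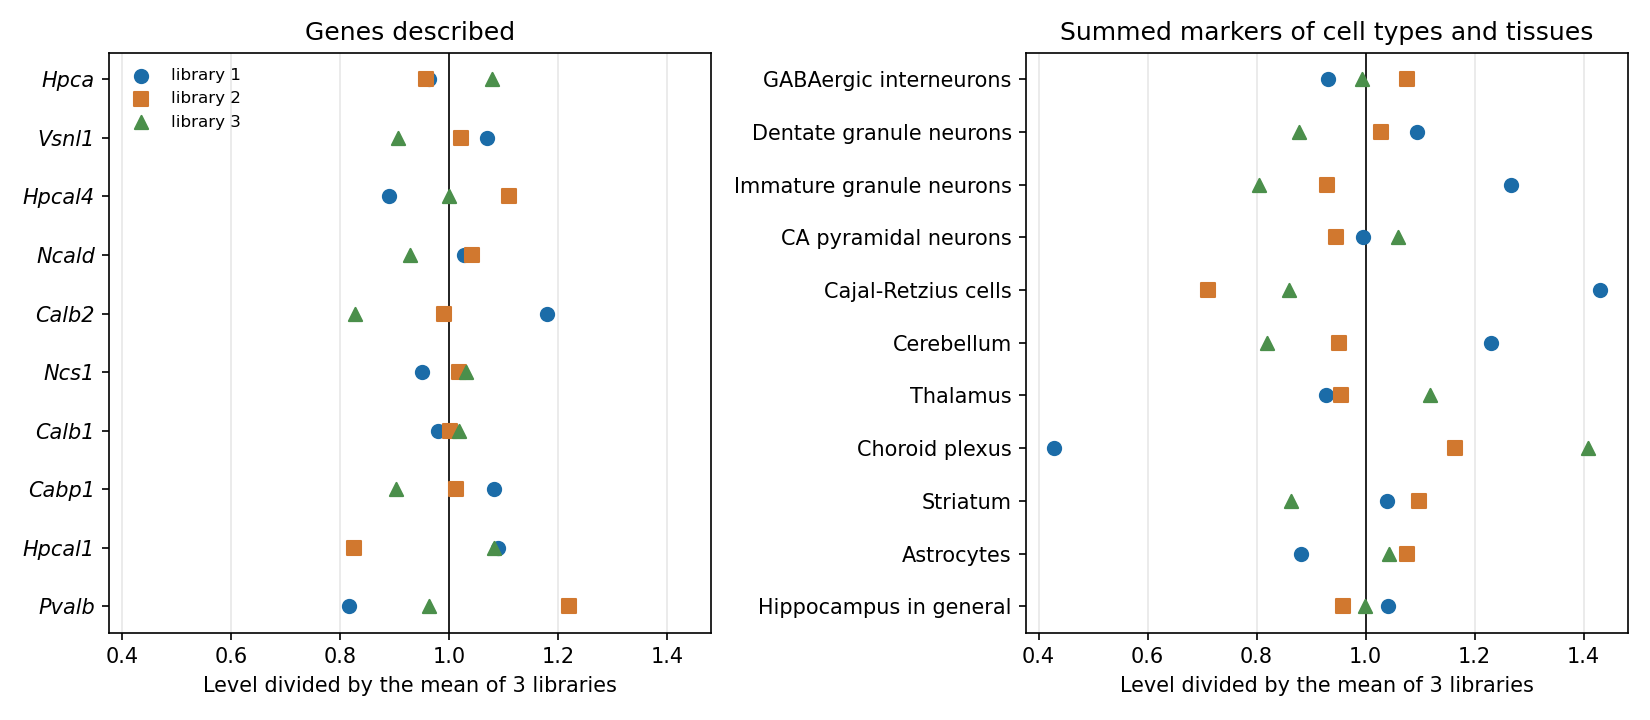
Each library's level divided by the mean of the 3 libraries (horizontal axis), for the 10 genes (left) and for the summed FPKM of each marker list (right); points are libraries. Calb2 and the summed Cajal-Retzius, immature granule and dentate granule markers are highest in library 1, and Calb1 lies near 1 in all 3. Pvalb and the summed interneuron markers are highest in library 2. Most of that interneuron sum is Cck, Sst and Npy, and the median of the 12 interneuron markers is highest in library 1.

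Going down the rest of the order, each gene was set against its lower neighbour with a null of no difference (limma, Benjamini-Hochberg over 13336 genes). The order comes from the same values that are tested. The adjustment runs over the genes compared with 1 member, not over the neighbouring pairs. Ncald was 1.86 ± 0.235 times Calb2, 0.88 log2 units above it (SE 0.241, adjusted p = 0.000305, higher in 3 of 3 libraries). With a moderated variance for each gene the adjusted p was 0.000349, and 6.37% of all genes were higher than Calb2. Calb2 was 1.36 ± 0.298 times Ncs1 (0.42 log2 units, SE 0.144, adjusted p = 0.0338, higher in 3 of 3), where 10% were higher than Ncs1. Their ranges did not overlap, but library 1 carried much of this gap: without replicate 1 it was 0.25 log2 units (adjusted p = 0.127). It was not called without replicate 2 either (adjusted p = 0.0968). Ncs1 was 1.39 ± 0.0339 times Calb1 (0.46 log2 units, adjusted p = 0.00365, higher in 3 of 3), where 14.1% were higher than Calb1. Calb1 was 1.503 ± 0.170 times Cabp1 (0.57 log2 units, adjusted p = 0.00389, higher in 3 of 3), where 19.3% were higher than Cabp1.

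The lowest steps of the order were not called in the main fit. Cabp1 was 1.36 ± 0.265 times Hpcal1, and although it was higher in 3 of 3 libraries without overlap, the difference of 0.41 log2 units was not called (adjusted p = 0.0891). The difference was called with a moderated variance for each gene and no pairing by library (adjusted p = 0.0251, limma variances). It was also called with Cabp1 as the fixed gene (limma adjusted p = 0.0276). This step of the order thus rests on how the spread is estimated. Hpcal1 and Pvalb overlapped, at 0.28 log2 units (95% interval -0.22 to 0.77, adjusted p = 0.302). Of all genes, 22.8% were higher than Hpcal1 and 26.3% higher than Pvalb. In all, 6 of 9 neighbouring pairs were called, and the gap between Hpca and Vsnl1 was the only one called when the null allowed 1 log2 unit.

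Over all 45 pairs, 29 were called as differing by more than 2-fold (limma, again with a gap of 1 log2 unit allowed and Benjamini-Hochberg adjustment over 13336 genes). The counts by lower gene are given beside the share of all genes that exceeded it by more than 2-fold, and since the members above a gene were ordered by these same means, nothing is read from that contrast. Above Vsnl1 it was 1 of 1 member, with 1.41% of all genes. Above Hpcal4 it was 1 of 2, with 1.96%, and above Ncald 1 of 3, with 2.22%, so Hpca alone exceeded these genes by more than 2-fold. Above Calb2 it was 2 of 4, with 3.39%, and above Ncs1 4 of 5, with 5.12%. Above Calb1 it was 4 of 6, with 6.88%, namely the 4 highest sensors, while the buffer Calb2 and the sensor Ncs1 were not called. Above Cabp1 it was 5 of 7, with 10.1%, above Hpcal1 5 of 8, with 12.3%, and above Pvalb 6 of 9, with 14.5%.

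Calb2 was 4.75 ± 1.61 times Pvalb, at 2.13 log2 units (SE 0.253), and this was called here and with each replicate left out. Calb1 was 2.50 ± 0.466 times Pvalb, at 1.26 log2 units (SE 0.253), which was not called as more than 2-fold (adjusted p = 0.269). Vsnl1 was 3.81 ± 0.464 times Ncs1, at 1.91 log2 units (SE 0.113, adjusted p = 0.000277), and Ncs1 was 2.08 ± 0.273 times Cabp1, at 1.03 log2 units, which was not called (adjusted p = 0.594).
Leaving out replicate 2 ended the calls of Vsnl1 over Calb2 (adjusted p = 0.110), Hpcal4 over Ncs1 (0.0521), Ncald over Ncs1 (0.0833) and Calb2 over Cabp1 (0.0871). Without replicate 1 Ncald over Ncs1 was lost (0.0749), and without replicate 3 Ncs1 over Pvalb (0.0717).

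**Figure D5:**
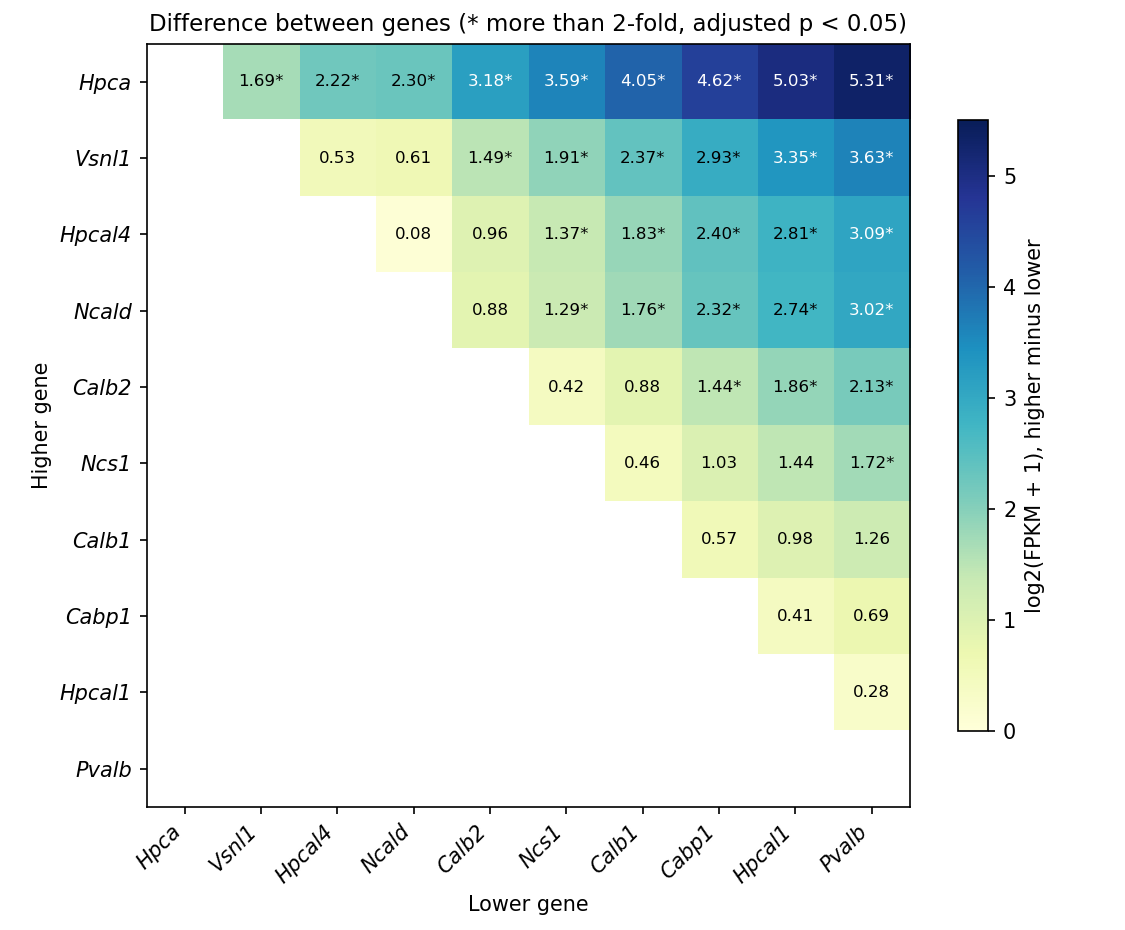
Difference in log2(FPKM + 1) between the higher gene (rows) and the lower gene (columns) of each of 45 pairs; an asterisk marks the 29 pairs called as more than 2-fold apart. The row of Hpca is called throughout, and the pairs near the diagonal are mostly not.

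Other EF-hand genes gave a scale for these levels, each compared with Hpca in the same fit. Calm2 encodes calmodulin, the general calcium sensor of every cell. It had 2569.42, 2496.84 and 2302.44 FPKM and stood 1.69 log2 units above Hpca (SE 0.121, adjusted p = 0.000720 in limma, in 3 of 3 libraries). Calm3, with a mean of 935 ± 43.6 FPKM, was not called as over 2-fold, though it passed with a null of no difference (limma adjusted p = 0.0334). These genes have related copies, so their values are uncertain where reads could be split. Calml4 was lower than Hpca by more than 2-fold, and Calml3, Calm4 and Calm5 were listed at 0 in all 3 libraries.

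Of the 15 other cytosolic EF-hand genes, 15 were lower than Hpca by more than 2-fold, with a median of -3.65 log2 units. The highest were Ppp3r1, the regulatory subunit of calcineurin, at 278 ± 20.5 FPKM, S100a1 at 190 ± 9.49 FPKM and S100a10 at 138 ± 4.46 FPKM. All 3 NECAB genes were lower, led by Necab2 at 45.2 ± 0.107 FPKM, and so were both CaBP genes tested. Over all 36 genes tested in these lists and the partner list, 32 were lower, 1 was higher and 3 were not called, with a median of -4.02 log2 units. The median over the 9 other members was -3.59 log2 units and over all 13336 genes -6.07.

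Described partners of the sensors were measured in the same libraries. Nsmf, which encodes the caldendrin partner Jacob, was the highest at 447.38, 529.60 and 575.13 FPKM, and its difference from Hpca, -0.56 log2 units, was not called as over 2-fold, though it passed with a null of no difference (limma adjusted p = 0.00298). Of the 8 partners tested, 7 were lower than Hpca by more than 2-fold. Ap2b1, a clathrin adaptor subunit gene described for hippocalcin, stood at 55.3 ± 5.79 FPKM, and Grk2, a receptor kinase gene, at 46.9 ± 3.68 FPKM. Pi4kb, the lipid kinase gene described for Ncs1, was at 13.6 ± 2.64 FPKM. Drd2, the dopamine receptor gene described for Ncs1, was at 0.59, 0.83 and 0.66 FPKM and was not tested.

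For each member the gene of nearest level was found over the 3 libraries, as the one with the smallest largest gap in log2(FPKM + 1). For Hpca it was Pebp1, with a largest gap of 0.0484, for Vsnl1 Tagln3, with 0.104, and for Calb1 Tspan6, with 0.0223. A match of level over 3 libraries of 1 group says nothing of a shared pattern.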

How the data were processed

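Total RNA of 3 hippocampus libraries was sequenced as paired reads of 150 bases, per the labels' protocols. The authors deposited FPKM in 1 table, per the file headers. The submitters' processing notes name Bowtie2 and the build GRCm38 (mm10). For the counting tool, its annotation, the strand setting and all versions, the sources used here give nothing.

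The scale of comparison was log2(FPKM + 1), on which gaps between low genes look smaller than they are, and the tool was limma 3.58.1 in R 4.3.3. For each member, the difference to it of every gene whose mean reached 1 FPKM was fitted over the 3 libraries, with calls at adjusted p under 0.05. Since all genes then share the noise of that member, limma gave all genes the same spread where the member was Calb2, Hpcal1 or Pvalb. P-values against those 3 can be too small, so a fit with the higher member as the fixed gene was added after seeing the data. A fit with a moderated variance for each gene was added too. It shrank the variance of each gene's level over all genes and summed it for the pair, without pairing by library. For Hpca over Pvalb by more than 2-fold, adjusted p rose from 2.85e-63 in limma to 6.02e-08 in that fit. For Cabp1 over Hpcal1, with a null of no difference, it fell from 0.0891 to 0.0251. A check of the main fit on simulated data used only Hpca as the fixed gene and a null of at most 1 log2 unit. It does not bear on p-values against the other members or with a null of no difference.

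Depth was estimated from transcripts of at least 800 bases of genes with 1 transcript, by choosing the fragment total and the bases taken off so that values of at most 4 fragments came out whole. In libraries 1, 2 and 3, 93.3%, 92.6% and 91.2% lay within 0.15 of a whole number, against 30% for values spread evenly, with the totals chosen on these same values. Fragment numbers are approximate, and errors from them cover counting only.

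Coding sequences were aligned as translated products with Biopython 1.88 (BLOSUM62, gap opening 10, extension 0.5). The members, gene lists and tests were chosen with earlier results of these data known. Genes named are the 10 members, the 3 highest of each list, the genes of nearest level, and some marker, partner and photoreceptor genes chosen after their values were seen; 1 listed gene is not reported here. Python 3.11.15, numpy 2.4.6, pandas 2.3.3 and matplotlib 3.10.9 were used.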

Additional observations from a re-analysis of the deposited data

How the results depend on the processing

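The order of the 10 means was the same as deposited, under median-ratio scaling (factors 1.01, 1.00 and 0.996) and with FPKM rescaled to the same sum in each library. The last moved all genes by 0.43, 0.29 and 0.65 log2 units in libraries 1, 2 and 3. Bc1, at 124074.10, 179412.24 and 0 FPKM, makes up most of the difference between the sums. On that scale Calb2 was 133, 102 and 109, Pvalb 20.2, 27.3 and 27.8 and Calb1 59.1, 54.8 and 71.6. Statements on which library is highest or lowest, and on how even Calb1 and Pvalb are, thus hold for FPKM as deposited. Under median-ratio scaling Calb2, Pvalb and Calb1 (43.51, 44.93 and 45.86) kept their order of libraries. Hpcal1, at 24.21, 18.52 and 24.34, then had library 3 in place of library 1 as the highest. Of 486 values of single pairs under the alternatives, with neighbouring pairs counted under both nulls, 452 stayed on their side of the threshold. The number that changed sign was 0, but most alternatives could not change it. The other filter, the other null and the added fits leave a gap as it was, and median-ratio scaling nearly does. Of neighbouring pairs, 6 of 9 were called. The count was 1 with a null of at most 1 log2 unit, which asks for a larger gap, and 5 to 6 when a replicate was left out. With a moderated variance for each gene it was 7, and with the higher member as the fixed gene 6. Calb2 over Ncs1 was also not called with a pseudocount of 0.1 (adjusted p = 0.0516) or with Calb2 as the fixed gene (0.0906). The 29 pairs called as over 2-fold became 25 to 28 without a replicate, 30 with a moderated variance for each gene, and 42 with a null of no difference. Ncs1 over Hpcal1 (adjusted p = 0.0546) passed under 4 alternatives other than that null, at 0.0110 to 0.0400. Genes higher than Hpca numbered 35, or 84 with a null of no difference, and 29 to 35 without a replicate. Those lower numbered 12950 to 13021 without a replicate. Genes were compared within each library, but no pairing of samples between conditions was possible because the libraries form 1 group. Depth limits Pvalb and Hpcal1, with at most 76 and 185 fragments in a library.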
